A study of Mus musculus with 4 samples.

Results

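The genes described here belong to the activin and transforming growth factor-beta (TGF-beta) pathway: Inhba, Tgfb1, Tgfbr1, Tgfbr2, Smad3, Smad7, Skil and Tgfbi. They were listed by name from their place in the pathway, with earlier results of these data known. An excess of calls among them is therefore not an independent finding. Each was read from the probe set whose platform symbol is that gene alone. In this way all 8 were measured, of 19938 genes with such a probe set. All 8 also passed the filter on dim genes, which left 14995 genes for the test. Each of the 8 had 1 probe set. Values are log2 expression per probe set, so a difference of 1 is a change of 2-fold.

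Bone marrow of C57BL/6J mice was cultured for 7 days, with 1 of 2 growth factors: granulocyte-macrophage colony-stimulating factor (GM-CSF) or macrophage colony-stimulating factor (M-CSF), and RNA of sorted cells was hybridised to 4 one-colour arrays. The GM-CSF cells, labelled M1, were sorted as CD45+MHCII+CD8a-F4/80+, and the M-CSF cells, labelled M2, as CD45+F4/80+CD11b+, with 2 arrays in each group. M-CSF came as a 20% share of supernatant from L929 cells, a mouse fibroblast line that secretes other proteins too, so growth factor, supernatant and sort gate cannot be told apart. No age, genotype change or further treatment is named for either group, and the labels do not say whether the replicates were separate cultures or mice, so a p-value reflects no more than the spread among these arrays, which for the M-CSF pair may be technical.

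TGF-beta and activin are secreted dimers that are read by a pair of receptor kinases. The type II receptor phosphorylates the type I receptor, which then phosphorylates Smad2 and Smad3, and these enter the nucleus with Smad4 to switch target genes. Smad7 and the corepressors Ski and Skil restrain this signal, and several of the restraining genes are themselves induced by it. In macrophages, TGF-beta is best known for damping inflammation and for shaping resident cells such as microglia, and activin A is a known product of macrophages grown with GM-CSF.

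The cells carried the macrophage markers in both groups, and the GM-CSF arrays lay further apart than the M-CSF arrays. Csf1r, Adgre1, Cd68, Mertk, Fcgr1 and Itgam were all measured, with a mean log2 level over the list of 11.53 to 11.81 on the 4 arrays. Of these 6 macrophage markers, 0 passed the test in either direction, beside 6.18% higher and 4.53% lower among all genes tested. With so few markers this count says little. Adgre1 encodes F4/80, on which both groups were sorted, and Itgam encodes CD11b, on which the M-CSF cells were sorted. The presence of these markers in the sorted cells was thus set by the gates. Over all genes tested, the difference between the GM-CSF arrays had an SD of 0.325 and that between the M-CSF arrays an SD of 0.180 on the log2 scale. GM-CSF replicate 1 stood apart in Xist, a noncoding RNA made from the silenced X chromosome, with a log2 level of 11.58, where the other arrays read 4.93, 4.53 and 4.80. Eif2s3y, a gene of the Y chromosome, went the opposite way, at 3.66 on that array and 9.10, 9.32 and 9.17 elsewhere. By both genes GM-CSF replicate 1 read as female cells and the other 3 arrays as male cells, so the GM-CSF pair mixed the sexes and was not a technical repeat of 1 mouse's cells. Where leaving out 1 array ended or added a call among the 8 genes, the value without it is given. A bulk array cannot tell fewer cells of a type from less RNA per cell.

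Of the 8 pathway genes, Inhba, Tgfbi and Tgfbr1 were higher in GM-CSF cells, Smad3 was lower, and Tgfb1, Tgfbr2, Smad7 and Skil did not pass (limma, Benjamini-Hochberg adjusted p under 0.05 over all 14995 genes). The 3 higher genes compare with 6.18% of all genes tested that were higher, and the 1 lower gene with 4.53% that were lower. Inhba and Tgfbi also differed at least 2-fold, as did 2.97% of all genes in that direction, and so did Smad3, against 1.27% of all genes lower by as much. The median log2 difference of the 8 genes was 0.56, and that of all genes tested was -0.013. Both GM-CSF arrays lay above both M-CSF arrays for 5 of the 8 genes and below them for 2, where 26.3% and 29.2% of all genes tested did so. Without GM-CSF replicate 1, 5 of the 8 were higher and 2 lower, and 9.79% and 7.86% of all genes were. Without either M-CSF array, 2 were higher and 1 lower, against 1.12% to 1.31% and 0.434% of all genes.

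**Figure D1:**
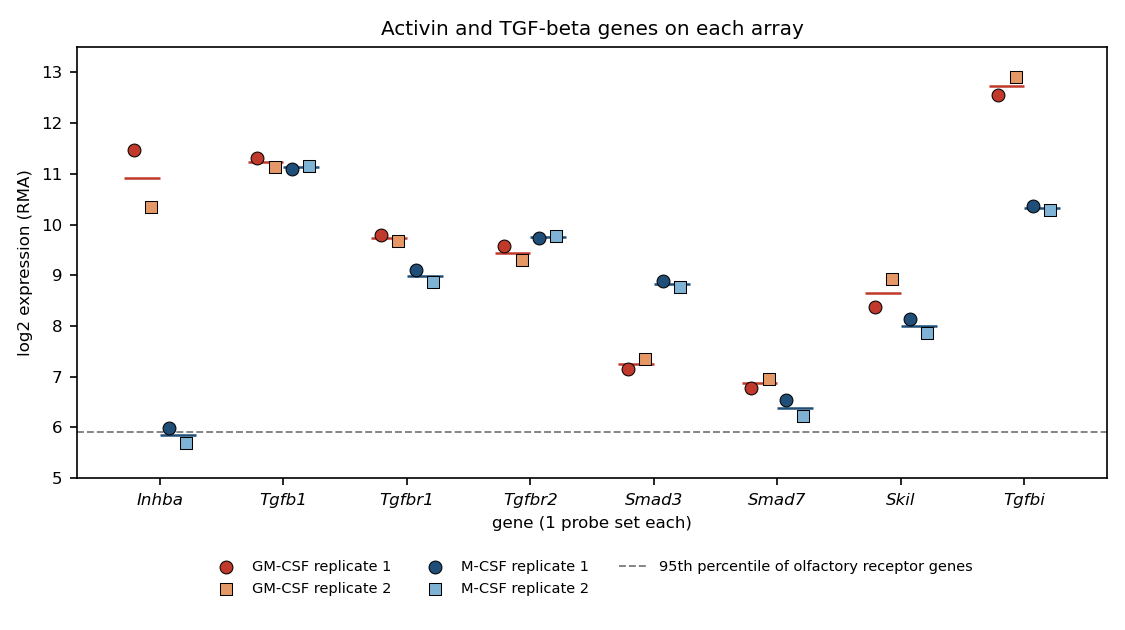
Log2 expression (vertical axis, RMA values) of the 8 genes on each of the 4 arrays, with short lines at the group means and a dashed line at the mean 95th percentile of olfactory receptor genes (5.90), taken as a background level. Inhba and Tgfbi sit far higher on the GM-CSF arrays and Smad3 on the M-CSF arrays, while the groups overlap for Tgfb1.

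Inhba, which encodes the beta A subunit that pairs with itself to form activin A, had the largest difference of the 8 genes. Its log2 values were 11.47 and 10.35 with GM-CSF and 5.98 and 5.70 with M-CSF. The groups were far apart, and the GM-CSF arrays themselves differed by 1.12, against 0.28 between the M-CSF arrays. The difference was 33.5-fold (log2 difference 5.06 ± 0.34 SE, 95% interval 4.23 to 5.90, n = 2 per group, adjusted p = 0.00068 with limma), which ranked 6 by size among all genes tested. The M-CSF mean of 5.84 was no higher than the 95th percentile of olfactory receptor genes (5.90), taken as a background level, so the fold depends on the array's background. Without GM-CSF replicate 1 the log2 difference was 4.51, and without GM-CSF replicate 2 it was 5.62.

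The other subunits that can pair with the Inhba product did not pass. Inha, the alpha subunit that turns activin into inhibin, read 5.51 and 5.67 with GM-CSF and 5.69 and 5.40 with M-CSF (log2 difference 0.05 ± 0.14 SE). Inhbb, the beta B subunit, read 5.40 and 5.67 against 5.52 and 5.49 (0.03 ± 0.13 SE). Both genes lay below the olfactory receptor level of 5.90 on all 4 arrays, and their groups overlapped. At that level the arrays could show neither gene as present nor a small difference in it.

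Tgfb1, the main TGF-beta ligand of leukocytes, was measured at nearly the same level in the 2 groups. It read 11.32 and 11.14 with GM-CSF and 11.09 and 11.16 with M-CSF, so the groups overlapped. The log2 difference was 0.10 ± 0.12 SE, with a 95% interval from -0.18 to 0.38, which spans folds from 0.881 to 1.30 (limma, adjusted p = 0.683). The miss of the threshold does not show equal levels, but a change of 2-fold lies outside this interval.

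Tgfbi, a secreted matrix protein first found as a gene induced by TGF-beta, was 5.26-fold higher in GM-CSF cells. Its values were 12.55 and 12.90 with GM-CSF and 10.36 and 10.30 with M-CSF. The groups did not overlap, and the gap was several times the spread within either pair (log2 difference 2.39 ± 0.14 SE, 95% interval 2.04 to 2.75, adjusted p = 0.000467 with limma). Tgfbi was well above the olfactory receptor level in both groups.

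Smad3, the Smad that carries the TGF-beta and activin signal to DNA, went the other way and was 2.97-fold lower in GM-CSF cells. It read 7.16 and 7.34 with GM-CSF and 8.88 and 8.76 with M-CSF. The GM-CSF arrays differed by 0.19 and the M-CSF arrays by 0.12, and the groups did not overlap (log2 difference -1.57 ± 0.12 SE, 95% interval -1.86 to -1.28, adjusted p = 0.000936 with limma). Inhba, Tgfbi and Smad3 kept their calls in all 4 fits that left out 1 array, with adjusted p of at most 0.0380, 0.0312 and 0.0387 (limma).

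The promoters of Inhba, Tgfbi and Smad3 are shown because these genes kept their calls whichever array was left out. Smad3 and Smad4 bind the short box GTCT, whose reverse complement is AGAC. Each line gives RefSeq sequence of build GRCm38.p6 from 250 bases before to 50 bases after the gene's start, 5′ to 3′ on the gene's strand, with each GTCT or AGAC in capitals. The windows are chr13:16011601-16011900 (plus strand), chr13:56609336-56609635 (plus strand) and chr9:63757945-63758244 (minus strand). The array files name no genome build, so these positions belong to RefSeq and not to the probes.
Inhba: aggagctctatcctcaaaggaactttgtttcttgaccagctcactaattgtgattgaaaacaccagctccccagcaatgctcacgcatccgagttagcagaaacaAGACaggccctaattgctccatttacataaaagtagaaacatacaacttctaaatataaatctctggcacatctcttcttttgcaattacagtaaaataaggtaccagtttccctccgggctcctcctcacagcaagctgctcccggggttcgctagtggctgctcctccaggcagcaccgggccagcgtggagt
Tgfbi: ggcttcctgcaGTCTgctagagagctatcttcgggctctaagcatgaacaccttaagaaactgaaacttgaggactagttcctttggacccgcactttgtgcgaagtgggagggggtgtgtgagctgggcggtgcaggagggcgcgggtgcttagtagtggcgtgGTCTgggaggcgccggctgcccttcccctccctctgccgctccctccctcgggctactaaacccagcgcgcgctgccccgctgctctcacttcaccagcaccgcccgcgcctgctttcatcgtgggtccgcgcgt
Smad3: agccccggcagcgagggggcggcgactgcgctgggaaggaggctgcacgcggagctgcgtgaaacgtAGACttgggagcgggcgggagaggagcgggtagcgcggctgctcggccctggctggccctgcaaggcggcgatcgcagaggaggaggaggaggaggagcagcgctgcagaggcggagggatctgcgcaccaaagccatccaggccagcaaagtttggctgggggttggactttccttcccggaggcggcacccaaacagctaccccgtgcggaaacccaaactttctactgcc

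The Inhba window held 1 GTCT or AGAC box, 145 bases before the start, and the Smad3 window 1 box, 183 bases before it. The Tgfbi window held 2 boxes, 239 and 85 bases before the start, and both were part of the longer CAGAC or its reverse complement GTCTG. Such short words are common: of 32851 promoter windows of the same length, 88.0% held the GTCT box on either strand and 64.8% held it at least 2 times. CAGAC or GTCTG was in 49.6% of windows, at least 2 times in 16.2%. Neither the palindrome GTCTAGAC (0.213% of windows) nor the AP-1 word TGANTCA (7.81%) was in the 3 windows. These matches describe letters only, and no binding was measured.

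The receptor genes Tgfbr1 and Tgfbr2 stood on different sides of the test. Tgfbr1, the type I receptor of TGF-beta, read 9.80 and 9.67 with GM-CSF and 9.11 and 8.86 with M-CSF. The groups did not overlap, and the gene was 1.68-fold higher in GM-CSF cells (log2 difference 0.75 ± 0.13 SE, 95% interval 0.44 to 1.06, adjusted p = 0.0174 with limma). The call was lost without M-CSF replicate 1 (adjusted p = 0.104, limma) and without M-CSF replicate 2 (0.184), while the log2 difference stayed between 0.63 and 0.87 over the fits that left out 1 array.

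Tgfbr2, the type II receptor that binds TGF-beta first, read 9.58 and 9.31 with GM-CSF and 9.74 and 9.77 with M-CSF. Both GM-CSF values lay below both M-CSF values, but the log2 difference of -0.31 ± 0.13 SE did not pass (limma, adjusted p = 0.196). It passed only in the fit without GM-CSF replicate 1, at -0.45 (adjusted p = 0.0301, limma), and was -0.17 without GM-CSF replicate 2. Whether the 2 receptors differ in their response was not tested.

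Smad7 and Skil, a pair of feedback inhibitors, lay higher in the GM-CSF arrays without passing the test. Smad7, which blocks the type I receptor, read 6.77 and 6.96 with GM-CSF and 6.55 and 6.22 with M-CSF (log2 difference 0.48 ± 0.15 SE, adjusted p = 0.0997 with limma). Skil, also called SnoN, a corepressor that holds Smad complexes inactive, read 8.38 and 8.92 against 8.14 and 7.87 (0.64 ± 0.20 SE, adjusted p = 0.102, limma). The groups did not overlap for either gene, and the gap between them was no larger than the spread of the wider pair. The 95% intervals, from 0.12 to 0.84 for Smad7 and from 0.16 to 1.13 for Skil, are not adjusted for the number of genes. Without GM-CSF replicate 1, Smad7 (0.58, adjusted p = 0.0151) and Skil (0.91, adjusted p = 0.000342) passed in limma. That fit takes the spread within a group from the closer M-CSF pair alone.

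**Figure D2:**
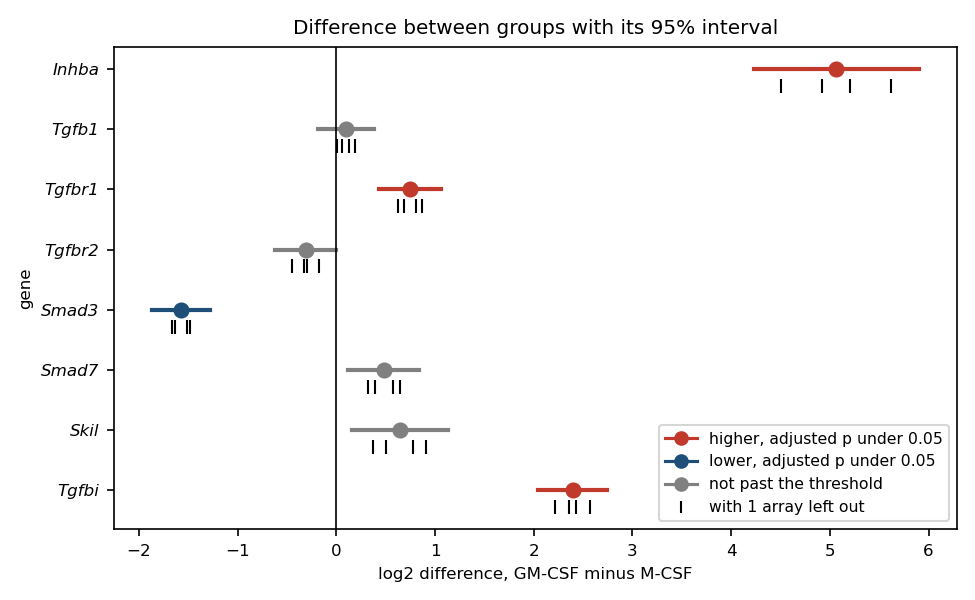
Log2 difference, GM-CSF minus M-CSF (horizontal axis), of each of the 8 genes, as points with 95% intervals of the fit over 4 arrays. The short black ticks give the difference with each array left out in turn, which ranged from 4.51 to 5.62 for Inhba and from -1.67 to -1.48 for Smad3 and had the same sign in all 4 fits for each of the 8 genes.

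The wider pathway was read from lists of its parts, 108 genes with the 8 above among them, of which 103 had a probe set of their own and 93 were tested. Of these, 17 were higher in GM-CSF cells, 8 were lower and 68 did not pass. Without the 8 genes, 14 of 85 were higher (16.5%) and 7 lower (8.24%), beside 6.18% and 4.53% of all genes tested. The median log2 difference of these 85 genes was 0.01. The lists too were chosen with earlier results of these data known, so these shares describe them and are not an independent finding. The calls of 21 of the 25 pathway genes that passed were lost without either M-CSF array, and Inhba, Tgfbi, Smad3 and Fn1 kept theirs (limma). All 25 passed in both fits without a GM-CSF array. Without GM-CSF replicate 1, 22 pathway genes were higher and 10 lower, beside 9.79% and 7.86% of all genes. Without GM-CSF replicate 2, 21 were higher and 13 lower, beside 11.2% and 10.2%. Without either M-CSF array, 3 were higher and 1 was lower, where all genes gave 1.12% to 1.31% and 0.434%.

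Among ligands, Inhba was the member that passed upwards and Bmp2 the one that passed downwards. Of 11 activin and TGF-beta ligands, 8 were tested, with 1 higher and 0 lower, and 9 of the 11 had group means below the olfactory receptor level in both groups. Tgfb2 was among these, at 5.67 and 5.47 against 5.61 and 5.74, and Tgfb3 was below the filter. Of 15 tested BMP and GDF ligands, 0 were higher and 1 was lower. For both ligand lists the shares over all genes tested were 6.18% higher and 4.53% lower. Bmp2, a bone morphogenetic protein, read 5.30 and 5.24 with GM-CSF and 6.49 and 6.09 with M-CSF, 2.02-fold lower in GM-CSF cells (log2 difference -1.02 ± 0.15 SE, adjusted p = 0.0107 with limma). Its GM-CSF mean lay within the olfactory receptor range.

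Among receptors, Tgfbr1 was joined by the coreceptor genes Tgfbr3 and Eng and by Bmpr1a. Of 12 tested receptor genes, 4 were higher with GM-CSF and 0 were lower, beside 6.18% and 4.53% of all genes tested. Tgfbr3, betaglycan, which presents TGF-beta to Tgfbr2 and binds inhibin, read 7.88 and 7.24 against 6.01 and 6.19, a 2.75-fold difference (log2 1.46 ± 0.21 SE, adjusted p = 0.0097, limma). Eng, endoglin, a related coreceptor, read 8.89 and 8.73 against 8.22 and 8.14 (1.55-fold). Bmpr1a, a type I receptor of BMPs, read 6.72 and 6.39 against 5.48 and 5.85 (1.86-fold), with its M-CSF mean in the olfactory receptor range.

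The receptors that bind activin did not pass. Acvr2a and Acvr2b, the type II receptors of activin, had log2 differences of 0.09 ± 0.18 SE and -0.02 ± 0.11 SE, with overlapping groups. Acvr1b, the type I receptor of activin, read 8.50 and 8.67 with GM-CSF and 8.37 and 8.28 with M-CSF (0.26 ± 0.12 SE, adjusted p = 0.233 with limma).

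Smad3 was the Smad gene that passed, 1 lower of 8 tested, where 4.53% of all genes tested were lower. Smad2, the other Smad that receives the TGF-beta and activin signal, read 8.52 and 8.41 with GM-CSF and 8.73 and 8.61 with M-CSF (log2 difference -0.21 ± 0.11 SE). Smad4, the shared partner, read 9.68 and 9.63 against 9.56 and 9.55 (0.10 ± 0.10 SE). Smad1 and Smad5, which carry BMP signals, had differences of -0.64 ± 0.18 SE and -0.41 ± 0.11 SE that did not pass (adjusted p = 0.0787 and 0.0764, limma). The median log2 difference of the 8 Smad genes was -0.11.

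The intracellular inhibitors split evenly. Of 12 tested, 3 were higher in GM-CSF cells, 3 were lower and 6 did not pass. The shares of all genes tested were 6.18% higher and 4.53% lower. The higher ones were Tgif1, a nuclear corepressor of Smads (1.83-fold), Smurf1, a ubiquitin ligase for Smads and receptors (1.72-fold), and Ski, the paralog of Skil (1.42-fold). Ski read 9.36 and 9.33 with GM-CSF and 8.81 and 8.88 with M-CSF. The lower ones were Wwp1, a ubiquitin ligase of the same family as Smurf1 (2.11-fold), Bambi, a receptor without a kinase that blocks TGF-beta and activin signals (2.05-fold), and Ppm1a, a phosphatase of Smads (1.45-fold). Bambi read 6.53 and 6.42 with GM-CSF and 7.51 and 7.51 with M-CSF. Ppm1a lost its call with no filter on dim genes (adjusted p = 0.066) and with arrays centred on their medians (0.0532, limma).

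Several genes that free or bind the ligands outside the cell were higher in GM-CSF cells. Of 18 tested, 5 were higher, 0 lower and 13 did not pass, beside 6.18% higher and 4.53% lower among all genes tested. Thbs1, thrombospondin-1, which can activate latent TGF-beta, read 13.31 and 13.11 against 12.08 and 11.94 (2.29-fold, log2 1.19 ± 0.12 SE, adjusted p = 0.00287 with limma). Furin, the protease that cuts the precursors of TGF-beta and activin, had group means of 9.91 with GM-CSF and 8.97 with M-CSF (1.92-fold). Itgb5, an integrin chain of a receptor that can activate TGF-beta, was 1.39-fold higher.

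Fstl1, a secreted follistatin-like protein, read 8.53 and 7.52 against 6.26 and 5.76 (4.04-fold, 2.02 ± 0.34 SE), and Dcn, decorin, a matrix protein that binds TGF-beta, read 7.63 and 6.94 against 6.42 and 6.03 (2.09-fold). Follistatin itself, Fst, the secreted protein that traps activin, read 7.16 and 6.28 with GM-CSF and 6.02 and 6.51 with M-CSF, and its groups overlapped (0.46 ± 0.30 SE, adjusted p = 0.425, limma). Fstl1 and Dcn lost their calls with trended and robust variances (adjusted p = 0.0839 and 0.0787). Dcn also lost it with no filter (0.0591) and after quantile normalization (0.0553), and Itgb5 with no filter (0.058) and with the replicate block (0.0572, limma).

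Markers of other cells that make these proteins were read beside them. Of 4 measured megakaryocyte and platelet markers, Pf4 and Ppbp were higher in GM-CSF cells, Gp9 was lower and Itga2b (log2 difference 0.30) did not pass. Pf4 and Ppbp lost their calls with trended and robust variances (adjusted p = 0.146 and 0.106, limma). The mean log2 level of the list was 9.24 and 8.60 with GM-CSF and 7.75 and 7.48 with M-CSF. Platelets are rich in TGF-beta1 and thrombospondin-1. Of 8 fibroblast markers, 7 were tested and Dcn was the 1 that passed. Pdgfrb (log2 difference 0.57) and Thy1 (0.52) also lay higher with GM-CSF, without passing. Col1a1 (-0.29), Col1a2 (-0.16), Col3a1 (-0.10) and Pdgfra (-0.29) lay lower, without passing. The mean log2 level of the fibroblast list was 6.28 and 6.14 with GM-CSF and 6.01 and 6.04 with M-CSF. Lum and Pdgfra of that list lay below the olfactory receptor level on all 4 arrays. Of 6 dendritic cell markers, Clec9a and Ccr7 were higher with GM-CSF, while Flt3, Xcr1, Zbtb46 and Cd209a did not pass. Flt3 (log2 difference -0.32) and Xcr1 (-0.19) lay lower with GM-CSF, at group means in the olfactory receptor range. Zbtb46 (0.25) and Cd209a (0.61) lay higher. The dendritic cell list averaged 6.34 and 6.11 with GM-CSF and 5.52 and 5.61 with M-CSF. Beside these marker counts, 6.18% of all genes tested were higher and 4.53% lower. Both groups had been sorted as CD45+ and F4/80+. The part of such cells in the results on Inhba, Tgfbi, Thbs1, Fstl1 and Dcn was not tested.

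Of the general target genes of TGF-beta, Tgfbi and Fn1 had the largest differences. Of 13 tested, 4 were higher in GM-CSF cells, 0 lower and 9 did not pass, beside 6.18% and 4.53% of all genes tested. Tgfbi, Smad7 and Skil, described above, are counted again in this list. Its median log2 difference was 0.48, the value of Smad7, against -0.013 over all genes. Fn1, the matrix protein fibronectin, read 11.58 and 11.26 with GM-CSF and 6.87 and 6.44 with M-CSF. Id2, an inhibitor of differentiation factors, was 1.68-fold higher, and Tgif1 was the other that passed. Pmepa1, which retains Smads and is a common marker of the signal, read 7.92 and 7.44 against 7.17 and 7.15 without passing (0.52 ± 0.17 SE, adjusted p = 0.118, limma). Ccn2, the connective tissue growth factor gene (-0.12 ± 0.13 SE), and Junb (0.28 ± 0.15 SE) did not pass either. Nor did Snai1 (0.01 ± 0.10 SE), Id1 (0.20 ± 0.13 SE), Cdkn2b (-0.08 ± 0.15 SE) and Id3 (-0.18 ± 0.18 SE). Several of these genes answer to many signals, so their levels are given as measured and not as a readout of this pathway.

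**Figure D3:**
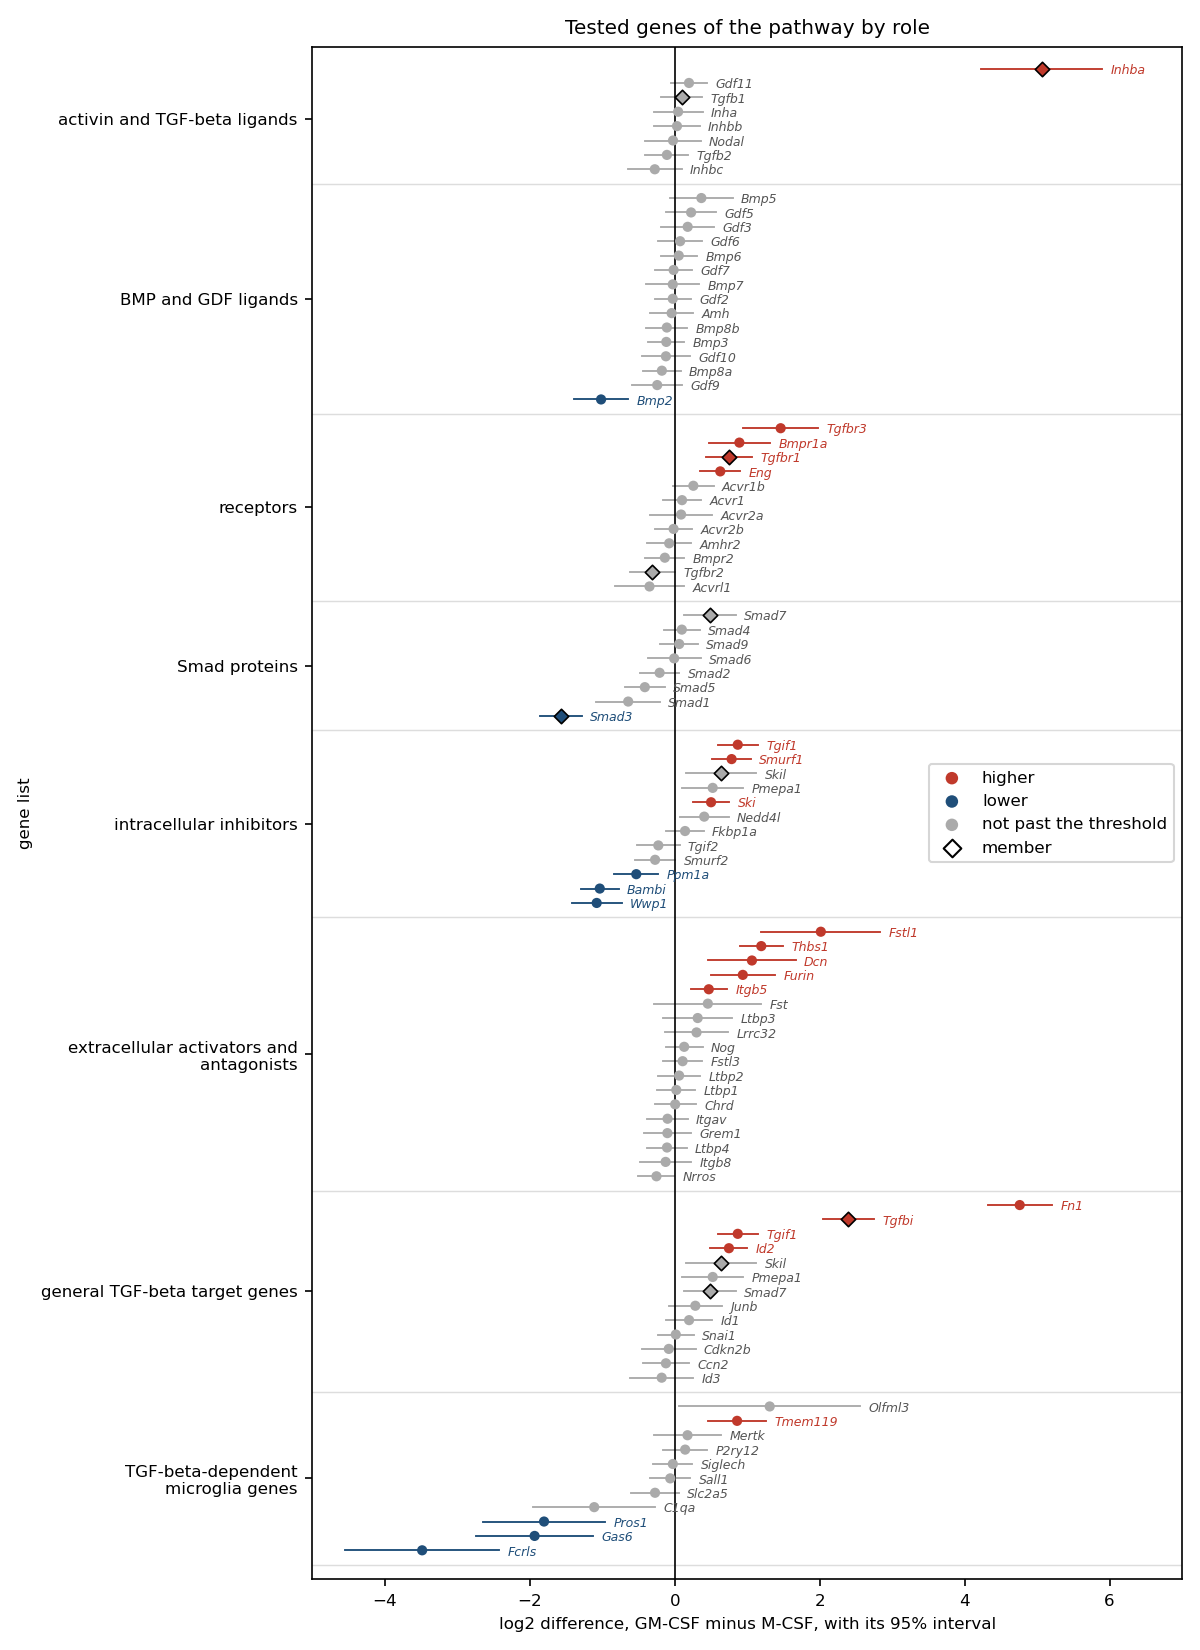
Log2 difference, GM-CSF minus M-CSF (horizontal axis), with its 95% interval, for every tested gene of the pathway lists (vertical axis, grouped by role). Diamonds mark the 8 genes described first, and colours mark genes past the threshold. Of 12 receptor genes 4 were higher and 0 lower, and of 12 intracellular inhibitors 3 were higher and 3 lower. Among all genes tested, 6.18% were higher and 4.53% lower.

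The genes whose pattern over the 4 arrays lay nearest to that of Inhba were Cxcl3, Mmp12, Itgax, Fn1 and Atp6v0d2. Predicted genes (Gm and Rik symbols), pseudogenes and olfactory or vomeronasal receptor genes were passed over in this ranking. Likeness was the root mean square distance of log2 values, each gene centred on its own mean over the 4 arrays, so it is small for genes with a difference of the same size. Cxcl3, a neutrophil chemokine, was nearest at 0.0912 and read 10.70 and 9.61 with GM-CSF and 5.45 and 5.08 with M-CSF, stepping down between the GM-CSF arrays much as Inhba did. Mmp12, macrophage elastase, followed at 0.250, Itgax, the CD11c gene, at 0.312, Fn1 at 0.326 and Atp6v0d2, a proton pump subunit, at 0.351. Over 4 arrays in 2 groups this likeness says little beyond the size of the group difference.

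**Figure D4:**
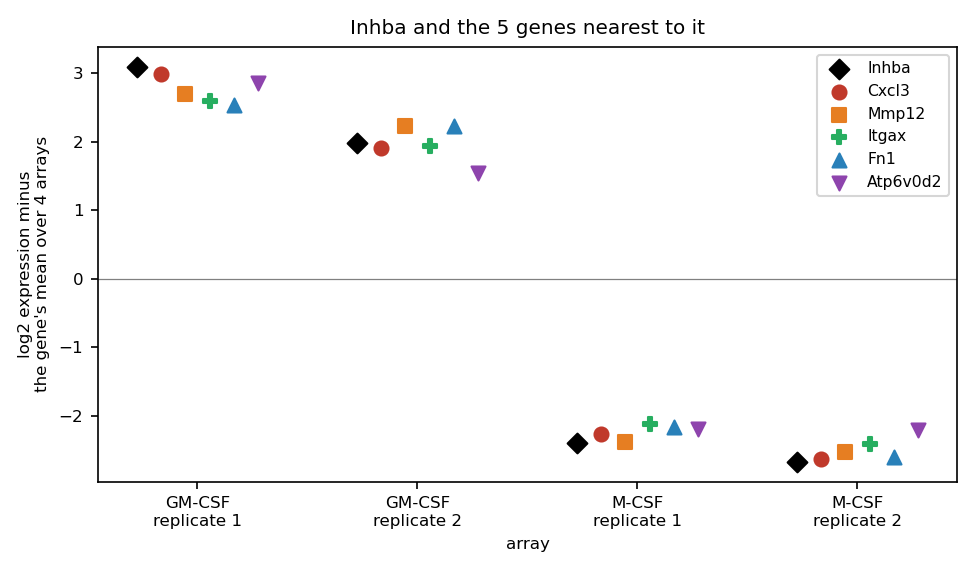
Log2 expression minus each gene's mean over the 4 arrays (vertical axis) for Inhba and the 5 genes nearest to it, on each array (horizontal axis). All 6 genes lie above their mean on both GM-CSF arrays and below it on both M-CSF arrays, and Inhba and Cxcl3 nearly coincide.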

How the data were processed

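The deposited values are log2 signals of probe sets. The submitters' processing notes name RMA and Affymetrix Expression Console 1.1. RMA brings the probes of all arrays to 1 distribution, so a shift in total RNA is invisible. Differences of dim genes are compressed near the background level. Genome build and summary level are not given in the sources used here. Probe sets were named by the platform annotation (21789 of 35556 had 1 symbol). The brightest probe set stood for each gene, and genes were tested when at least 2 arrays exceeded that array's 30th percentile. The two-sided test was limma's (lmFit, eBayes; version 3.58.1 under R 4.3.3), with Benjamini-Hochberg adjustment over 14995 genes, with GM-CSF minus M-CSF differences. It was tested on simulated data. The number of arrays limits the precision. Promoters came from RefSeq (GRCm38.p6), which matched 6 of the 8 members. No set test was run.

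The members and gene lists were chosen with earlier results of these data known. Named genes were the 8 members, list genes past the threshold, textbook partners of a member (Inha, Inhbb, Fst, Acvr2a, Acvr2b, Acvr1b, Smad2, Smad4, Tgfb2, Tgfb3 and Ski), and the 5 genes nearest to Inhba. Genes of the marker lists and other list genes named as not past the threshold were chosen after their values were seen. Of the list genes, 5 were not paired with a probe set by a symbol of their own and were not analysed here. Alternatives were other filters, quantile normalization, median centring, probe set means, a replicate block, trended and robust variances, a threshold of 0.01, and leaving out each array.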

Additional observations from a re-analysis of the deposited data

How the results depend on the processing

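Of the 8 genes, 3 were higher and 1 lower with every other filter, normalization, centring, probe set rule and variance model tried. At an adjusted p of 0.01, Tgfbr1 was lost, and 2 were higher. With 1 array left out, 2 to 5 were higher and 1 to 2 lower, with 3 at least 2-fold apart and past the threshold in each such fit. No direction of the 8 genes changed under the 12 alternatives. Over the pathway lists, 17 genes were higher and 8 lower. An adjusted p of 0.01 left 8 and 4, and trended and robust variances left 5 lower. With 1 array left out, 3 to 22 were higher and 1 to 13 lower. Over all genes, those fits called from 168 to 1683 higher and from 65 to 1522 lower, against 926 and 679, and an adjusted p of 0.01 called 438 and 223. The fits without an M-CSF array take the spread from the wider GM-CSF pair. With the replicate block, 3 of the 8 were higher and 1 lower, and 16 and 9 of the pathway genes. Same-numbered arrays deviated together only weakly (r = 0.065 across genes, which are not independent replicates), so the numbers were not taken to pair the samples. Genes near the olfactory receptor level allow no statement about small differences.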

Other observations

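Genes that microglia, the macrophages of the brain, are known to need TGF-beta for were read as a further list, and those that passed did not move in 1 direction. Of 11 tested, 1 was higher in GM-CSF cells, 3 were lower and 7 did not pass (limma), beside 6.18% and 4.53% of all genes tested. Tmem119, a membrane protein used as a microglia marker, was 1.82-fold higher, at 7.80 and 7.63 on the log2 scale against 7.06 and 6.65. Fcrls, a scavenger receptor of the Fc receptor-like family, was 11.2-fold lower, at 7.94 and 9.42 against 12.08 and 12.25. Its log2 difference of -3.49 was -2.75 when GM-CSF replicate 1 was left out and -4.23 when replicate 2 was. Gas6 and Pros1, the ligands that bridge dying cells to the receptor Mertk, were 3.82-fold and 3.49-fold lower. Gas6 read 7.94 and 6.84 with GM-CSF and 9.29 and 9.35 with M-CSF, and Pros1 read 7.18 and 6.02 against 8.42 and 8.38.

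Mertk itself did not pass (log2 difference 0.18 ± 0.19 SE). Olfml3 read 8.46 and 10.19 with GM-CSF and 8.20 and 7.84 with M-CSF and did not pass (1.31 ± 0.51 SE), at 2.18 when GM-CSF replicate 1 was left out and 0.45 when replicate 2 was. C1qa read 8.79 and 9.90 with GM-CSF and 10.28 and 10.64 with M-CSF and did not pass (-1.11 ± 0.35 SE, adjusted p = 0.105, limma). Its log2 difference was -0.56 when GM-CSF replicate 1 was left out and -1.67 when replicate 2 was. P2ry12 (0.14 ± 0.12 SE), Sall1 (-0.06 ± 0.11 SE), Siglech (-0.03 ± 0.11 SE) and Slc2a5 (-0.27 ± 0.14 SE) did not pass. Sall1, Siglech and Slc2a5 lay below the olfactory receptor level of 5.90 on all 4 arrays. Tmem119, Fcrls, Gas6 and Pros1 lost their calls when either M-CSF array was left out, at adjusted p of up to 0.184, 0.121, 0.197 and 0.236, and the last 3 also with trended and robust variances (0.0964, 0.093 and 0.115, limma).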
